A study of Homo sapiens with 28 samples.

Results

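The genes described here are 29 genes of cholesterol and fatty acid synthesis, taken by gene symbol from the count table, which holds 58735 genes. They comprise 7 genes of the mevalonate branch, 3 genes from squalene to lanosterol, 8 genes from lanosterol to cholesterol, 4 sterol regulators and carriers and 7 genes of the fatty acid branch. All 29 passed the filter on low counts and were among the 17191 genes tested. Cells build cholesterol from acetyl-CoA through mevalonate, squalene and lanosterol, and build fatty acids from the same precursor. Both branches are switched on by SREBP proteins, membrane-bound transcription factors that are escorted from the endoplasmic reticulum and cleaved when membrane sterol runs low. INSIG1 holds them back when sterol is plentiful. Proliferating cancer cells are known to keep these genes active to supply membrane.

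The cells were of the MDA-MB-231 line, derived from a triple-negative breast cancer. They carried either an empty vector (EV) or overexpressed tropomyosin 2.1 (Tpm2.1), a product of the TPM2 gene that binds actin filaments. Both lines were grown in serum-containing medium with puromycin, and each is a single line, so a difference between them cannot be told apart from a difference between 2 derived lines. Attached cells had spent 6 hours on tissue culture plates. Suspended cells had spent 5 hours or 1, 2 or 4 days on ultra-low attachment plates, a setting used to study anoikis, in which epithelial cells die once detached. At each of those times the suspended Tpm2.1 cells were split with Annexin V beads, which bind phosphatidylserine exposed on dying cells, into an apoptotic and a non-apoptotic fraction. EV cells and attached cells are described without such a split. Comparing the lines in suspension therefore also compared whole with bead-separated cells. Attached cells were of 6 hours alone, so no attached library matched suspension of 1, 2 or 4 days. Against attached cells, suspension and time in culture therefore differed together at those times. There were 14 groups of 2 libraries, called biological replicates in the titles, and p-values measure only the spread between these libraries, which may be technical.

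Counts summed to between 13043529 and 27416335 per library. TPM2 averaged 24.9 CPM (counts scaled to a common library total) in attached EV cells and 3302 CPM in attached Tpm2.1 cells, and at least 2556 CPM in every Tpm2.1 suspension group. Of the marker genes looked at, VIM lay between 762 and 1504 CPM over the groups, while CDH1 and PGR were at or near 0 and were not tested. Other breast marker genes were not all near 0. ERBB2 averaged 82.9 CPM and EPCAM 4.25 CPM over attached EV cells and the 4-day non-apoptotic fraction together, and both were tested. ESR1 averaged 0.983 CPM over the same libraries and was tested as well. The apoptotic fraction at 4 days stood apart in the number of genes with a count. Its libraries held 18183 and 18676 such genes, against 21275 to 24530 in the others. Mitochondrial mRNAs took 6.40% and 5.86% of its counts, against 2.67% to 5.34% in the apoptotic libraries of earlier times. At 2 days, replicate 2 exceeded replicate 1 for 27 of the 29 genes in the non-apoptotic fraction, with a median ratio of 1.15, and for 28 in the apoptotic fraction, with a median ratio of 1.25. In bulk RNA, fewer cells of a type and less RNA per cell cannot be told apart.

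The sequences upstream of 5 members are shown because these genes recur in the results below: HMGCS1 and MSMO1 had the largest rises in suspension in EV and in non-apoptotic Tpm2.1 cells, INSIG1 is the feedback regulator, SCD was the most abundant member and SREBF2 encodes an SREBP. They are RefSeq sequences of build GRCh38.p14, read 5′ to 3′ on the strand of the gene. Capitals mark the word CCAAT, the box bound by NF-Y, a known partner of SREBP. On the opposite strand this box reads ATTGG. In the SREBF2 stretch capitals also mark a word of the form TCACNCCAC, which resembles the sterol response element (SRE).
HMGCS1, chr5:43313513-43313612, minus strand: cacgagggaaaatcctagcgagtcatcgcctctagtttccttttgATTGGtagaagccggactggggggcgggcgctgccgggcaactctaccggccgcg
MSMO1, chr4:165327469-165327622, plus strand: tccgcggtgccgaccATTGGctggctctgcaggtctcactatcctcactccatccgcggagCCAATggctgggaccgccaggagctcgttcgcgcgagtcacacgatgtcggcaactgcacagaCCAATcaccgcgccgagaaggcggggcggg
INSIG1, chr7:155297678-155297775, plus strand: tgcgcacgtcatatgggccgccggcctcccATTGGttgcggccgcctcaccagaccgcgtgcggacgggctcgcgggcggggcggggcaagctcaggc
SCD, chr10:100346983-100347082, plus strand: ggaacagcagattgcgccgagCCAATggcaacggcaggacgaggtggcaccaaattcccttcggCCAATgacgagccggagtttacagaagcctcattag
SREBF2, chr22:41832945-41833024, plus strand: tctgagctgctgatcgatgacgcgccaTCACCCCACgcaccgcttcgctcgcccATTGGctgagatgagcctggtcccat

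RefSeq windows from 250 bases before to 50 bases after the start were matched for 25 of the 29 genes, 34 windows in all, and both strands were searched. CCAAT stood in 24 of these windows (70.6%) and in 34.6% of all 35116 windows. GGGCGG, the core of the GC box bound by Sp1, stood in 30 (88.2%) and in 44.95% of all. The E-box CACGTG was in 4 windows (11.8%) against 7.26% of all. The SRE-like word TCACNCCAC was found only in the SREBF2 window, 133 bases before the start, and in 1.13% of all windows. In the SREBF2 stretch it stands before an ATTGG word and does not overlap it. A match describes the sequence only.

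Levels between genes were compared per exonic length of the gene, and 3 fatty acid genes had the highest medians. SCD, which introduces the double bond of oleate, had a median of 336 FPKM (fragments scaled by the summed exonic bases of the gene and by library total) over the 28 libraries, FASN, the multifunctional fatty acid synthase, 109 FPKM, and ACLY, which makes cytosolic acetyl-CoA from citrate, 88.1 FPKM. INSIG1 followed at 81.8 FPKM on this scale, while ACACA, at 8.46 FPKM, and ELOVL6, at 15.9 FPKM, were among the lower members. HMGCS1, which makes HMG-CoA at the head of the mevalonate branch, had 41.6 FPKM. The lowest medians were those of TM7SF2, a sterol reductase acting after lanosterol, at 5.24 FPKM, and of the mevalonate kinase gene MVK at 6.18 FPKM. Together the 29 genes took 0.642% and 0.637% of counts in the attached EV libraries and 0.467% in both attached Tpm2.1 libraries. Their share was 1.46% and 1.53% in EV cells after 4 days, 0.807% and 0.827% in the non-apoptotic fraction at that time, and 0.502% and 0.512% in the apoptotic fraction. The group with the highest level was EV at 4 days for 21 members, and the lowest was attached Tpm2.1 cells for 13 and the apoptotic fraction at 4 days for 15.

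**Figure D1:**
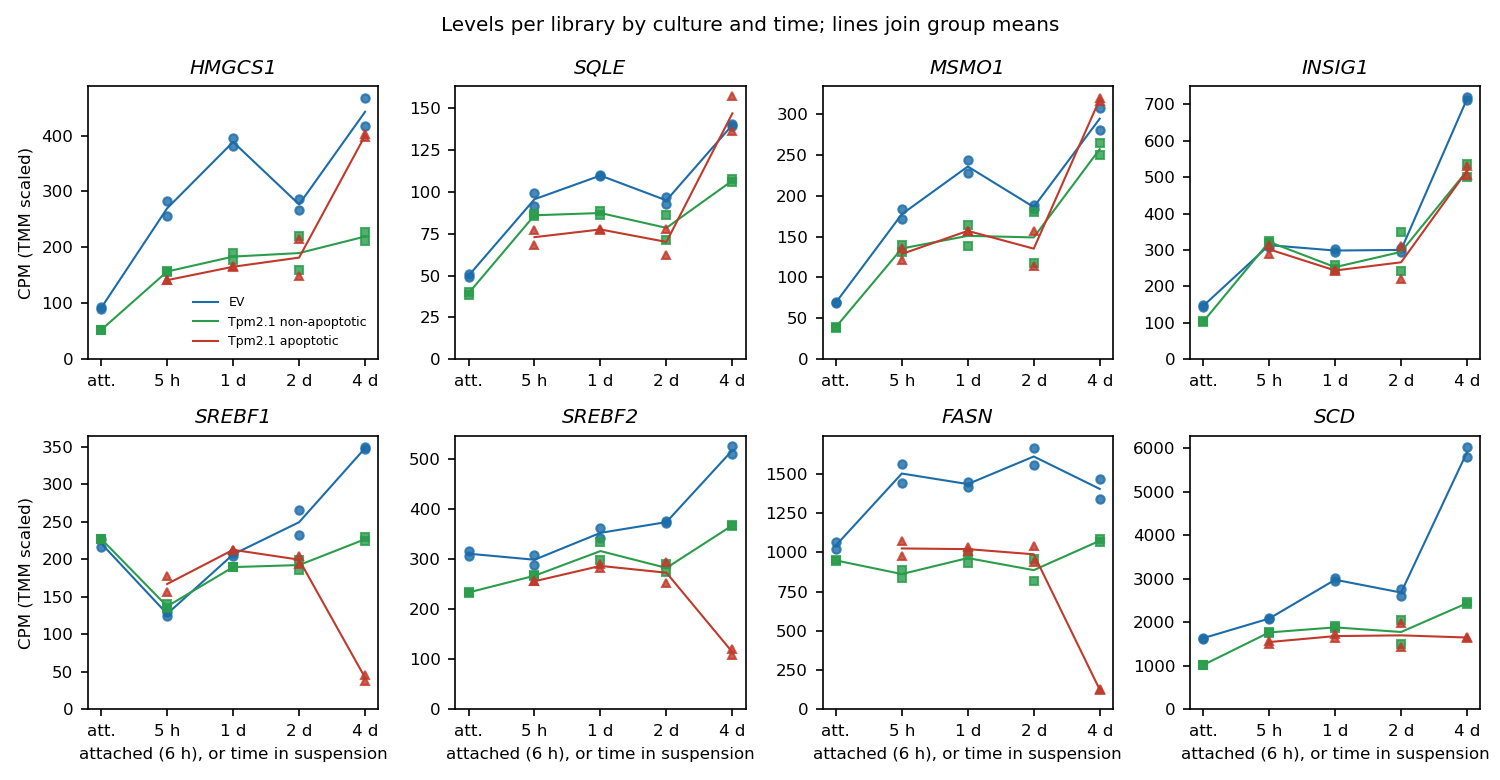
Levels of 8 members in each of the 28 libraries (points; CPM after TMM scaling, linear axis) in attached cells and over time in suspension, with lines joining group means. HMGCS1, SQLE, MSMO1 and INSIG1 stood higher at every suspension time than in attached cells, and the apoptotic fraction parted from the non-apoptotic one at 4 days, downward for SREBF1, SREBF2 and FASN.

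In attached cells, the question was what Tpm2.1 overexpression changed before detachment. The members were lower in the Tpm2.1 line: 23 of 29 passed as lower and none as higher (edgeR's quasi-likelihood test, Benjamini-Hochberg adjusted p under 0.05), where 10.1% of all tested genes were called lower and 10.4% higher. Their median log2 fold change was -0.44, against -0.00 over all genes. Both branches took part, with 6 of 7 mevalonate genes, all 3 genes from squalene to lanosterol, 6 of 8 later sterol genes, 3 of 4 regulators and carriers and 5 of 7 fatty acid genes lower.

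TM7SF2 (chr11:65111845-65116384, hg38) had the largest fall. It measured 12.6 and 12.6 CPM in the EV libraries and 6.89 and 5.13 CPM in the Tpm2.1 libraries, that is -1.07 ± 0.13 (log2 fold change ± SE, adjusted p = 4.09e-08). MSMO1 (chr4:165327623-165343160), which oxidises the methyl groups removed after lanosterol, fell from 69.5 and 69.00 to 38.7 and 39.99 CPM, by 0.82 ± 0.12 on the log2 scale (adjusted p = 2.7e-06). For both genes every EV library was above every Tpm2.1 library. HMGCS1 (chr5:43289395-43313512) fell from 94.2 and 89.3 to 52.9 and 52.1 CPM (log2 -0.81 ± 0.11, adjusted p = 3.97e-07). INSIG1 went from 148 and 145 to 105 and 101 CPM (log2 -0.51 ± 0.10, adjusted p = 0.000294). Thus the feedback regulator was lower together with the enzymes.

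The gene pair that encodes the SREBPs differed. SREBF2, whose product drives mainly the sterol branch, measured 316 and 306 CPM in EV and 234 and 233 CPM in Tpm2.1 cells (log2 -0.41 ± 0.06, adjusted p = 1.51e-06). SREBF1, whose product drives mainly fatty acid synthesis, measured 226 and 215 CPM in EV and 227 and 227 CPM in Tpm2.1 cells (log2 0.04 ± 0.06, adjusted p = 0.726). FASN also missed the threshold, at 1066 and 1021 CPM in EV and 950.0 and 947 CPM in Tpm2.1 cells (log2 -0.14 ± 0.07, adjusted p = 0.136), although every EV library was the higher. The other members not called were PMVK, HSD17B7, SC5D and ELOVL6, with log2 fold changes of -0.14, -0.21, -0.01 and -0.13. Of the other fatty acid genes, ACLY fell by 0.73 ± 0.06 and SCD by 0.69 ± 0.09, and ACACA, the acetyl-CoA carboxylase, by 0.39 ± 0.07. The call of STARD4, a cytosolic sterol carrier (log2 -0.28 ± 0.09), was lost when any 1 of the 4 attached libraries was left out, those of NSDHL and SQLE when Tpm2.1 replicate 1 was, and that of NSDHL also when EV replicate 1 was.

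In suspension the sign of most members was the opposite. The attached libraries of each line served as its control here, so these comparisons share libraries with the one above. No attached library matched the later suspension times, and the part of time in culture in these changes was not tested. In EV cells, the mean over 4 times against attached cells was higher for 23 members and lower for 2, where 34.2% of all genes were called higher and 32.2% lower, and the members' median log2 fold change was 0.63 against 0.06 over all genes. In the non-apoptotic Tpm2.1 fraction against attached Tpm2.1 cells, 22 were higher and 1 lower, where 30.8% and 30.6% were called, and the median was 0.73 against 0.03. The 2 comparisons share no library. Of the members called higher, 21 were shared, 91.3% of the EV list and 95.5% of the non-apoptotic list. The overlap over all genes was not counted, so whether this sharing is particular to the members is not known. EV cells were measured whole and Tpm2.1 cells after bead separation. Mitochondrial mRNAs took 1.59% to 1.63% of counts in attached EV libraries and 1.12% to 4.36% in suspended ones, and 2.14% to 2.18% against 1.22% to 1.62% in the Tpm2.1 line. Of 8 nuclear-retained RNAs, 7 were higher in suspended EV cells and 3 in non-apoptotic cells. The part of either in the members' change was not tested.

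The mevalonate branch was uneven. HMGCS1 rose 3.67-fold in EV cells, from 94.2 and 89.3 CPM to 283 and 257 at 5 hours, 382 and 395 at 1 day, 286 and 267 at 2 days and 417 and 468 at 4 days (mean log2 1.88 ± 0.09, adjusted p = 1.05e-20). In the non-apoptotic fraction it rose 3.54-fold from 52.9 and 52.1 CPM, to 157 and 157 CPM at 5 hours, 177 and 189.8 at 1 day, 159.9 and 219.8 at 2 days and 211 and 228 at 4 days (log2 1.83 ± 0.09, adjusted p = 7.89e-20). Every suspended library lay above every attached library of its line. IDI1, the isopentenyl diphosphate isomerase, rose by 0.99 ± 0.08 and 1.20 ± 0.08 on the log2 scale in EV and non-apoptotic cells. MVK and MVD rose by 0.62 ± 0.08 and 0.56 ± 0.05 in EV cells and by 0.28 ± 0.08 and 0.50 ± 0.05 in non-apoptotic cells, where the MVK call was lost without attached Tpm2.1 replicate 2. Other steps changed little. FDPS, the farnesyl diphosphate synthase, measured 0.00 ± 0.06 in EV cells and did not pass. In non-apoptotic cells it measured 0.15 ± 0.06 and passed (adjusted p = 0.027), but the call was lost under DESeq2, with DESeq2's size factors, with no filter on low counts, and when either attached Tpm2.1 library, or replicate 2 of the non-apoptotic fraction at 5 hours, 1 day or 2 days, was left out. ACAT2, the cytosolic thiolase, measured -0.06 ± 0.06 and -0.05 ± 0.06 and did not pass in either line. Its exons share 9.23% of their bases with TCP1 on the opposite strand, and whether counting used strand is not given in the sources used here.

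PMVK, the phosphomevalonate kinase, was lower in suspended EV cells, at 14.8 and 13.4 CPM attached and 10.2 and 9.70 CPM at 5 hours, 11.3 and 11.1 at 1 day, 9.72 and 10.3 at 2 days and 15.2 and 14.9 at 4 days (log2 -0.31 ± 0.11, adjusted p = 0.0147). Its libraries lay below the attached ones at 5 hours, 1 day and 2 days and above them at 4 days, and the call was lost without attached EV replicate 1. The other lower member was ACLY, at 746 and 770.4 CPM attached and 727 and 753 CPM at 5 hours, 668 and 673 at 1 day, 558 and 568 at 2 days and 724 and 756 at 4 days in suspension (log2 -0.17 ± 0.05, adjusted p = 0.00202). Scaling by library totals alone raised the median of all genes in this comparison from 0.06 to 0.21, and neither fall was called under it. For ACLY the attached and suspended libraries overlapped at 5 hours and 4 days.

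All 3 genes from squalene to lanosterol rose in both lines. SQLE, the squalene epoxidase and an oxygen-requiring step, went from 50.9 and 48.97 CPM to between 91.6 and 141 CPM in EV cells and from 38.4 and 40.5 to between 71.1 and 108 CPM in non-apoptotic cells (log2 1.12 ± 0.07 and 1.17 ± 0.07). FDFT1, the squalene synthase, rose by 0.63 ± 0.05 and 0.96 ± 0.06. LSS, the lanosterol synthase, rose by 0.79 ± 0.06 and 0.34 ± 0.06.

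Among the 8 genes after lanosterol, 7 rose in either line. MSMO1 had the largest rise in the non-apoptotic fraction, 4.24-fold, from 38.7 and 39.99 CPM to 140.2 and 131 CPM at 5 hours, 164 and 138 at 1 day, 118 and 179.9 at 2 days and 249.7 and 264 at 4 days (log2 2.08 ± 0.10, adjusted p = 3.78e-20). In EV cells it rose 3.16-fold, from 69.5 and 69.00 to 183 and 171 CPM at 5 hours, 228 and 243 at 1 day, 188 and 184 at 2 days and 307 and 281 at 4 days. The ranges of attached and suspended libraries did not overlap in either line. HSD17B7, a ketosteroid reductase of the same demethylation complex, rose in EV cells from 11.8 and 13.1 CPM to 33.3 and 33.7 CPM at 5 hours, 41.9 and 39.4 at 1 day, 39.9 and 39.6 at 2 days and 46.1 and 51.5 at 4 days (log2 1.69 ± 0.09, adjusted p = 6.43e-20) and by 1.52 ± 0.09 in non-apoptotic cells. Its near-identical copy HSD17B7P2 held 6.53% as many counts, so how reads were split between the pair is uncertain. TM7SF2 rose by 1.32 ± 0.09 and 1.53 ± 0.11, CYP51A1, the lanosterol demethylase, by 0.86 ± 0.09 and 1.30 ± 0.10, and SC5D, a sterol desaturase, by 0.80 ± 0.09 and 1.20 ± 0.09. NSDHL rose by 0.73 and 0.96, and DHCR7, the reductase of the last step, by 0.45 and 0.73. EBP, the sterol isomerase, was the exception at 0.10 ± 0.06 and 0.08 ± 0.06 (adjusted p = 0.12 and 0.232).

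The regulators separated by family member. INSIG1 (chr7:155297776-155310235) rose within 5 hours and again at 4 days in both lines. In EV cells it measured 148 and 145 CPM attached, 308 and 318 at 5 hours, 302 and 294 at 1 day, 295 and 306 at 2 days and 711 and 719 at 4 days (mean log2 1.36 ± 0.09, adjusted p = 4.97e-17). In the non-apoptotic fraction it measured 105 and 101 CPM attached and 326 and 318 CPM at 5 hours, 258 and 248 at 1 day, 241 and 348 at 2 days and 499.8 and 535 at 4 days in suspension (log2 1.70 ± 0.09, adjusted p = 1.83e-19). The levels at 5 hours to 2 days lay well above attached cells, with the spread of the 2-day non-apoptotic pair the widest. STARD4 rose by 1.14 ± 0.07 and 1.14 ± 0.07.

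SREBF2 (chr22:41833079-41907308) rose by a mean of 0.28 ± 0.05 (log2) in EV cells, which measured 316 and 306 CPM attached and 289 and 308 CPM at 5 hours, 362 and 343 at 1 day, 372 and 376 at 2 days and 509.5 and 525 at 4 days (adjusted p = 2.57e-06). In non-apoptotic cells it rose by 0.39 ± 0.05, from 234 and 233 CPM to 267 and 266 CPM at 5 hours, 334 and 298 at 1 day, 274 and 290.2 at 2 days and 368 and 366 at 4 days (adjusted p = 5.31e-09). At 5 hours the EV libraries overlapped the attached ones, and from 1 day on they lay above them. SREBF1 (chr17:17810399-17837002) behaved otherwise. In EV cells it dropped from 226 and 215 CPM to 124 and 129.9 CPM at 5 hours (log2 -0.80 ± 0.06, adjusted p = 2.39e-13), then stood at 204 and 208 CPM at 1 day, 233 and 266 at 2 days and 347 and 349 at 4 days. In the Tpm2.1 line it dropped from 227 and 227 to 134 and 139 CPM (log2 -0.73 ± 0.06, adjusted p = 1.98e-12), then stood at 189 and 189 CPM at 1 day, 186 and 198 at 2 days and 224 and 229 at 4 days. At 5 hours HMGCS1 and INSIG1 were high and SREBF1 low in the same libraries. Over the 4 times SREBF1 had a log2 fold change of -0.02 ± 0.05 in EV cells, with a positive sign when scaled by library totals or over protein-coding genes alone, and -0.31 ± 0.05 in non-apoptotic cells (adjusted p = 5.28e-07). Its exons share 6.92% of their bases with RAI1 on the opposite strand.

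In the fatty acid branch, 6 of 7 genes rose in EV cells and 4 of 7 in non-apoptotic cells. SCD (chr10:100347124-100364834) measured 1640.3 and 1622 CPM in attached EV cells and 2068 and 2097 CPM at 5 hours, 2942 and 3009 at 1 day, 2604 and 2758 at 2 days and 5791 and 6034 at 4 days in suspension (mean log2 0.95 ± 0.08). In the Tpm2.1 line it went from 1009 and 1019.9 CPM to 1749 and 1777 CPM at 5 hours, 1858 and 1902 at 1 day, 1502 and 2045 at 2 days and 2406 and 2467 at 4 days (mean log2 0.94 ± 0.08). The 4-day level of EV cells exceeded all others, while the mean responses of the lines differed by -0.01 ± 0.10. ELOVL6, which extends palmitate, rose by 1.09 ± 0.07 and 0.78 ± 0.07. The polyunsaturated fatty acid desaturases FADS1 and FADS2 rose by 0.27 and 0.31 in EV cells and by 0.58 and 0.39 in non-apoptotic cells, and 490 exonic bases of this neighbouring pair overlap on opposite strands.

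FASN (chr17:82078333-82098332) rose in EV cells, from 1066 and 1021 CPM to 1445 and 1561 CPM at 5 hours, 1452 and 1419 at 1 day, 1557 and 1666 at 2 days and 1341 and 1468 at 4 days (log2 0.51 ± 0.05, adjusted p = 7.66e-11). In the Tpm2.1 line it measured 950.0 and 947 CPM attached and in the non-apoptotic fraction 836 and 887 CPM at 5 hours, 932 and 995 at 1 day, 815 and 958 at 2 days and 1083 and 1065 at 4 days (log2 -0.01 ± 0.05, adjusted p = 0.899), a value whose sign was positive under library totals and after removal of the GC trend. All 8 suspended EV libraries were above the attached ones, whereas the non-apoptotic libraries lay on both sides of theirs. ACACA rose by 0.44 ± 0.05 in EV cells and measured 0.07 ± 0.05 in non-apoptotic cells, where it was not called.

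**Figure D2:**
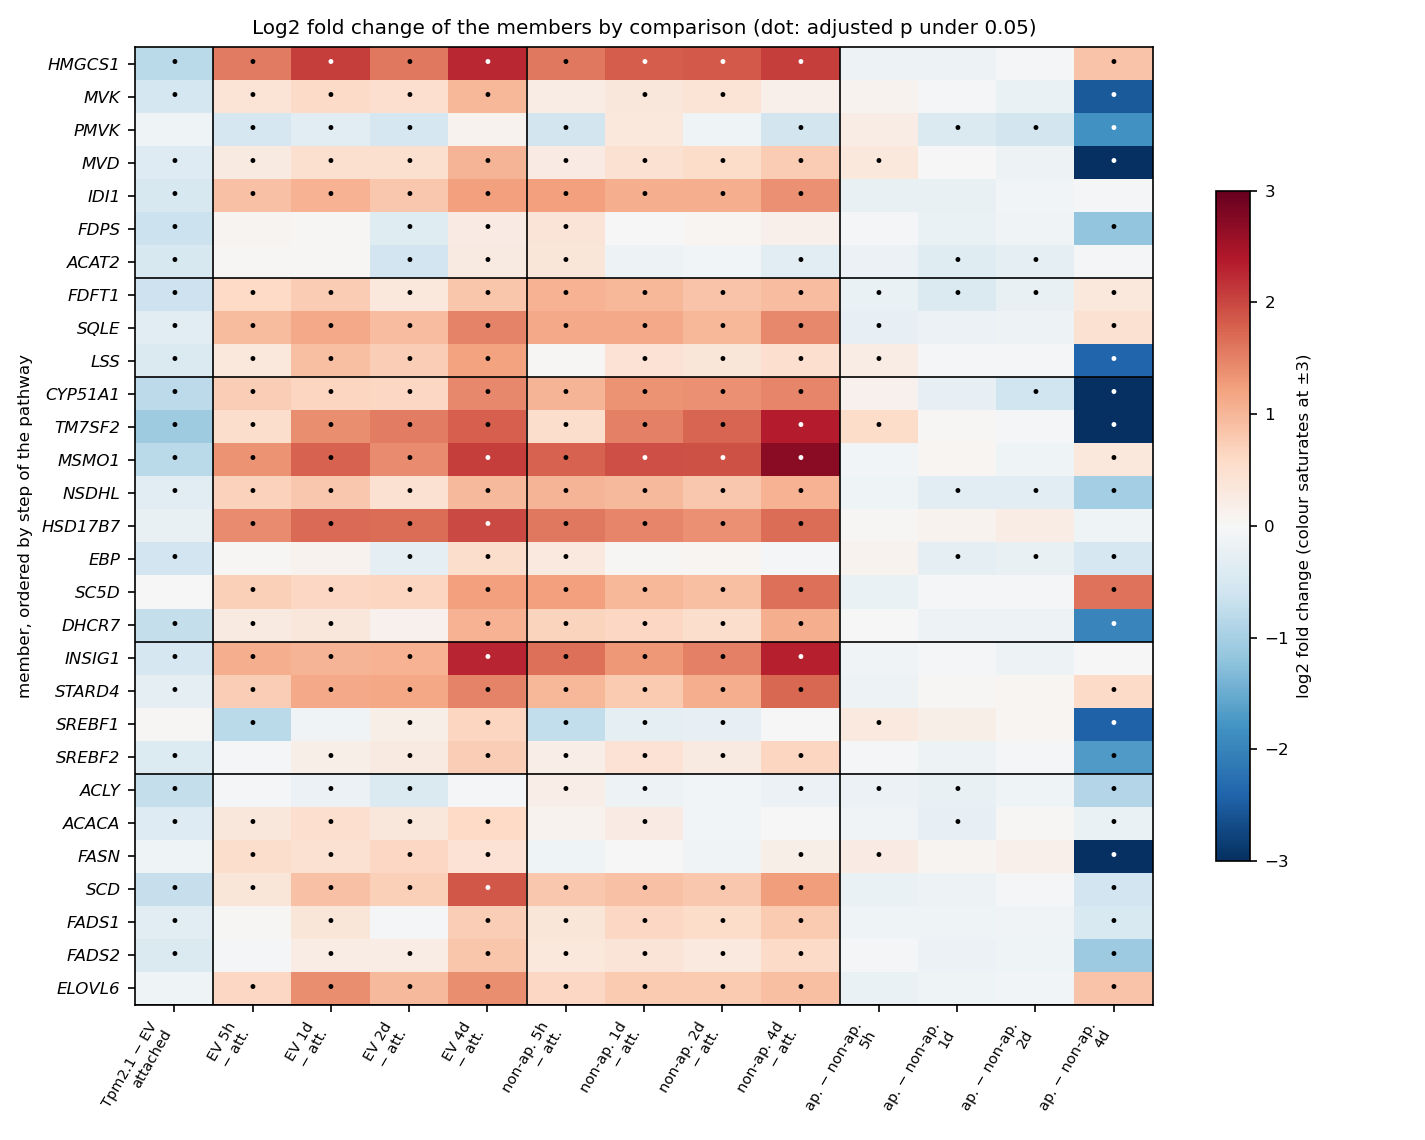
Log2 fold change of each of the 29 members (rows, ordered by step of the pathway, horizontal lines between branches) in 13 comparisons (columns), with a dot where the adjusted p was under 0.05 and colours saturating at 3. The attached comparison is blue for 23 called members, the suspension columns are mostly red with pale rows for PMVK, FDPS, ACAT2, EBP and ACLY, and the 4-day fraction column holds 18 lower and 7 higher members.

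Whether the lines responded differently was tested as the difference between the 2 responses, where separation differed along with line. It was larger in the Tpm2.1 line for 7 members and in EV cells for 6, where 17% and 16.6% of all genes were called, and 16 did not pass. Larger rises in Tpm2.1 cells were those of CYP51A1 (0.45 ± 0.13, adjusted p = 0.00804), MSMO1 (0.43 ± 0.13, adjusted p = 0.0115), SC5D, INSIG1, FDFT1, FADS1 and DHCR7. As fitted, FASN had the largest difference the other way (-0.52 ± 0.07, adjusted p = 5.23e-07), followed by LSS (-0.45 ± 0.08, adjusted p = 2.57e-05), ACACA, MVK, ELOVL6 and SREBF1. For HMGCS1 the difference was -0.05 ± 0.12 (adjusted p = 0.792) and for SREBF2 0.11 ± 0.07. HMGCS1 thus rose in both lines from different starting levels. With the GC trend over all genes removed, 13 members had a larger rise in Tpm2.1 cells (22.6% of all genes), and without 4 days 13 had (18.6% of all genes, and 16.8% smaller). MVK and SREBF1 were called in neither. The difference of FASN was -0.21 with the GC trend removed, and those of ELOVL6, ACACA and LSS, at -0.32, -0.32 and -0.31, were larger. Leaving out 1 attached library ended some calls: MVK, SC5D and INSIG1 without EV replicate 1, MVK, CYP51A1 and INSIG1 without EV replicate 2, MVK, MSMO1, SC5D and DHCR7 without Tpm2.1 replicate 1, and CYP51A1, INSIG1 and ELOVL6 without Tpm2.1 replicate 2.

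**Figure D3:**
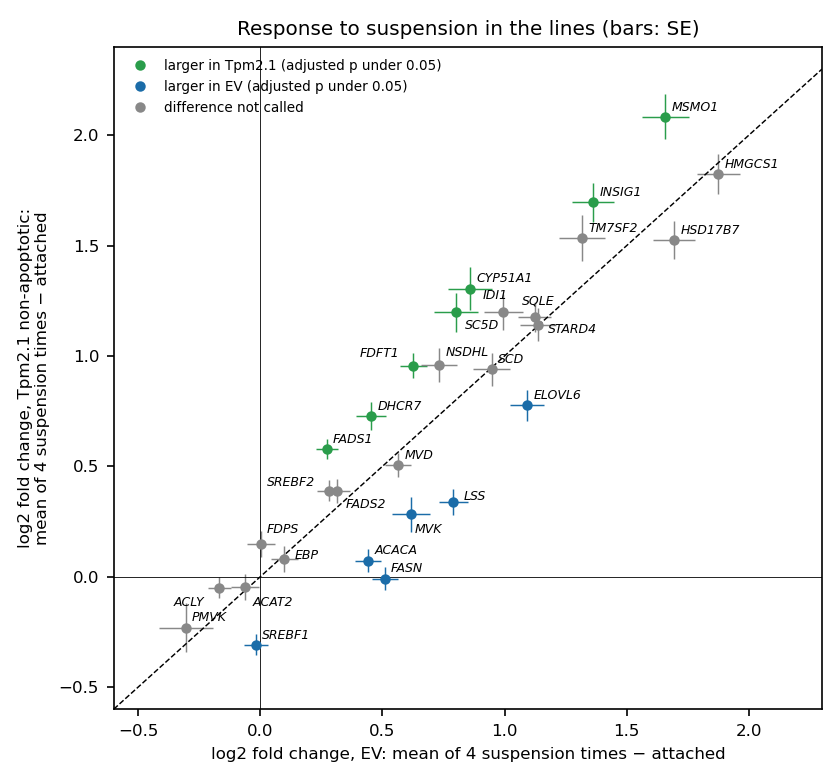
Log2 fold change of each member in suspension against attached cells, mean over 4 times, in EV cells (horizontal axis) and in the Tpm2.1 non-apoptotic fraction (vertical axis), with bars for the SE and a dashed line where the responses are equal. HMGCS1, SQLE, STARD4 and SCD lie close to the line, MSMO1, INSIG1, CYP51A1 and SC5D above it, and FASN, ACACA, LSS and MVK below it.

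The difference was also tested at single times. At 5 hours the rise was larger in the Tpm2.1 line for 14 members and smaller for 2 (15% and 13.8% of all genes), among them INSIG1 (0.55 ± 0.14), SC5D (0.53 ± 0.15), SCD (0.45 ± 0.13) and FDFT1 (0.44 ± 0.09). At 4 days it was larger for 3, MSMO1, TM7SF2 and SC5D, and smaller for 12 (12.8% and 15.6% of all genes), among them MVK (-0.85 ± 0.14), LSS (-0.70 ± 0.10), SREBF1 (-0.66 ± 0.09) and SCD (-0.59 ± 0.13). SCD was thus called in opposite directions at those times, and a test between the times was not run.

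A further rise between 2 and 4 days stood out in EV cells. No attached library was of either time, so whether attached cells change over this interval was not tested. From 2 to 4 days 27 members rose and 1, FASN, fell (22.3% and 16.7% of all genes), with a median log2 fold change of 0.56 against 0.02 over all genes. INSIG1 rose by 1.25 ± 0.10 (adjusted p = 5.16e-13) and SCD by 1.14 ± 0.09 (adjusted p = 8.31e-13), with 4-day pairs above every other EV library. ACAT2 and EBP, which were not called in the mean over times, rose as well, ACAT2 by 0.86 ± 0.08 and EBP by 0.81 ± 0.07. Between 1 and 2 days, by contrast, 11 members had fallen and 1, SREBF1, had risen (9.99% and 9.25% of all genes). Mitochondrial mRNAs took 3.97% and 3.98% of counts in the EV libraries at 2 days and 1.12% and 1.28% at 4 days, and their part in this step was not tested. At 4 days itself 27 members were higher than in attached EV cells and none lower (31.6% and 28% of all genes). In the non-apoptotic fraction 21 were higher and 3 lower at 4 days (32.6% and 29.8%). There 17 members rose from 2 to 4 days and 2, PMVK and ACAT2, fell (18% and 16.1% of all genes), INSIG1 by 0.82 ± 0.10, MSMO1 by 0.79 ± 0.11 and SCD by 0.46 ± 0.09.

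Set directly against EV cells at the same times, the non-apoptotic fraction was lower for 26 members and higher for 1 in the mean over times (32% and 28.6% of all genes). The median log2 difference was -0.39 against -0.03. LSS (-0.89 ± 0.04), HMGCS1 (-0.86 ± 0.05), MVK (-0.86 ± 0.05) and TM7SF2 (-0.85 ± 0.06) were the farthest below EV cells. SC5D was the member above them, by 0.39 ± 0.05 (adjusted p = 4.88e-08), and FADS1 and PMVK differed by -0.02 and -0.07 and did not pass. At 5 hours 16 members were lower and 1 higher (20.4% of all genes in each direction), and at 4 days 26 and 1 (23.8% and 20.2%). In the sterol and the fatty acid branch together, 13 members were lower at each of the 4 times. They were HMGCS1, MVK, MVD, FDPS, LSS, TM7SF2, EBP, DHCR7, SREBF2, ACLY, ACACA, FASN and SCD. The share of all genes lower at each of the 4 times was not counted, so whether this is particular to the members is not known.

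Between the fractions of suspended Tpm2.1 cells few members were called up to 2 days and most at 4 days. Over all genes too, the share called in each direction was larger at 4 days than at the earlier times. At 5 hours 5 members were higher in the apoptotic fraction and 3 lower (9.66% and 11.8% of all genes), and TM7SF2 was the farthest apart, at 13.8 and 11.2 against 8.85 and 8.34 CPM (log2 0.54 ± 0.13, adjusted p = 0.00256). The others higher were MVD, SREBF1, FASN and LSS, by 0.31, 0.28, 0.25 and 0.21. The longest transcripts of these 5 higher members had 58.3% to 65.3% GC, and those of the 3 lower ones 46.5% to 52.2%. PMVK, FADS2 and DHCR7, at 59.5%, 58.6% and 58.3% GC, did not pass. The part of base composition in these calls was not tested. At 1 day 7 were lower and at 2 days 6 (11.3% and 9.71% of all genes), and none was higher at either (7.99% and 6.92%). PMVK, ACAT2, FDFT1, NSDHL and EBP were lower at both. FDFT1 was lower at 5 hours, 1 day and 2 days, by 0.19 ± 0.07, 0.42 ± 0.07 and 0.23 ± 0.07 on the log2 scale. HMGCS1 measured 141 and 142 CPM in the apoptotic pair at 5 hours, against 157 and 157 CPM in the non-apoptotic pair (log2 -0.15 ± 0.10). At 2 days it measured 149 and 215 against 159.9 and 219.8 CPM (log2 -0.06 ± 0.10), and neither difference passed. INSIG1 did not pass at any time, with values between -0.14 and -0.00. The pairs overlapped at 2 days for both genes. Each apoptotic library was below the non-apoptotic library of the same number, but the numbers do not establish a pairing.

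At 4 days 18 members were lower in the apoptotic fraction, 13 of them past 2-fold, and 7 were higher, 1 past 2-fold, where 36.8% and 35.3% of all genes were called. The median log2 fold change of the members was -0.57 against 0.00. In the sterol branch, MVD, the mevalonate diphosphate decarboxylase, measured 9.24 and 10.7 CPM against 114 and 118 CPM (log2 -3.54 ± 0.10, adjusted p = 5.95e-28). TM7SF2 measured 2.35 and 3.43 against 29.6 and 31.8 CPM (-3.41 ± 0.17), and MVK, LSS and DHCR7 were lower by 2.52, 2.39 and 1.97. The pairs were far apart for all of these. In the fatty acid branch, FASN measured 119 and 129.6 against 1083 and 1065 CPM (log2 -3.11 ± 0.07, adjusted p = 5.15e-30). SREBF1 measured 37.8 and 46.01 against 224 and 229 CPM (-2.44 ± 0.08) and SREBF2 119.6 and 108 against 368 and 366 CPM (-1.69 ± 0.07). As fitted, both SREBP genes and the synthase were thus well below their level in the other fraction. Removal of the GC trend over all genes left FASN at -0.53, SREBF1 at -0.21 and SREBF2 at -0.39.

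Neighbouring steps went the other way. SC5D (chr11:121292453-121308694) measured 415 and 441 CPM against 133 and 145 CPM, 3.08-fold higher (log2 1.62 ± 0.10, adjusted p = 1.22e-17), the highest level of the gene in any group. HMGCS1 measured 402 and 398 against 211 and 228 CPM (log2 0.87 ± 0.10, adjusted p = 5.52e-10). ELOVL6, STARD4, SQLE, FDFT1 and MSMO1 were higher by 0.86, 0.58, 0.46, 0.32 and 0.31. The call of MSMO1 was lost under DESeq2, with library totals, and without non-apoptotic replicate 1 or either apoptotic library. That of ACACA, which was lower by 0.20, was lost with protein-coding genes alone and without non-apoptotic replicate 2. INSIG1 measured 505 and 529.7 against 499.8 and 535 CPM, with overlapping pairs. IDI1, ACAT2 and HSD17B7 also did not pass. In the mean over the 4 times 21 members were lower and 4 higher (32.4% and 25.6% of all genes), with CYP51A1 lowest at -1.35 ± 0.08 and SC5D highest at 0.33 ± 0.05. The other higher calls, of HMGCS1, ELOVL6 and STARD4, were each lost in 4 or more of the fits that left out 1 library. Without 4 days 15 were lower and 3 higher (21.8% and 16.7%). Of the 25 called in the mean, 8 were then no longer called and 4, TM7SF2, SREBF1, FASN and ELOVL6, were called in the opposite direction.

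The difference at 4 days followed the base composition of the transcripts. All 11 members whose longest transcript had a GC content of at least 55% were lower, with a median of -2.39, and of the 8 under 45% GC 5 were higher and 1 lower. Of all genes, 73.4% at 55% to 60% GC and 87.3% at 60% and over were called lower. Under 40% GC 2.13% were, and from 40% to 45% GC 7.26%. Across the 29 members, Pearson's r between GC content and log2 fold change was -0.70 and Spearman's rho -0.81. Across 17183 genes with a value the same measures were -0.68 and -0.73, and the median log2 fold change went from 0.93 under 40% GC to -2.55 at 60% and over. These genes share the same 4 libraries and are not replicates. Transcript length showed r = 0.01 over the members. In these apoptotic libraries mitochondrial mRNAs took 6.40% and 5.86% of counts, against 1.25% and 1.55% in the non-apoptotic ones, and 5 of the 8 nuclear-retained RNAs were higher. The part of either in the result was not tested.

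With the GC trend over all genes removed, 6 members were higher and 18 lower (27.9% and 28.3% of all genes), but not the same ones. MVD was then at -1.18, TM7SF2 at -0.98, MVK at -1.03, LSS at -0.89, FASN at -0.53, SREBF1 at -0.21 and SREBF2 at -0.39, all still called. SC5D was at 0.77, and HMGCS1, at 0.11, was no longer called, nor were PMVK, FDPS and ACACA. STARD4 and MSMO1 were then lower, at -0.48 and -0.57, and EBP and FADS2 higher, at 0.25 and 0.46.

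**Figure D4:**
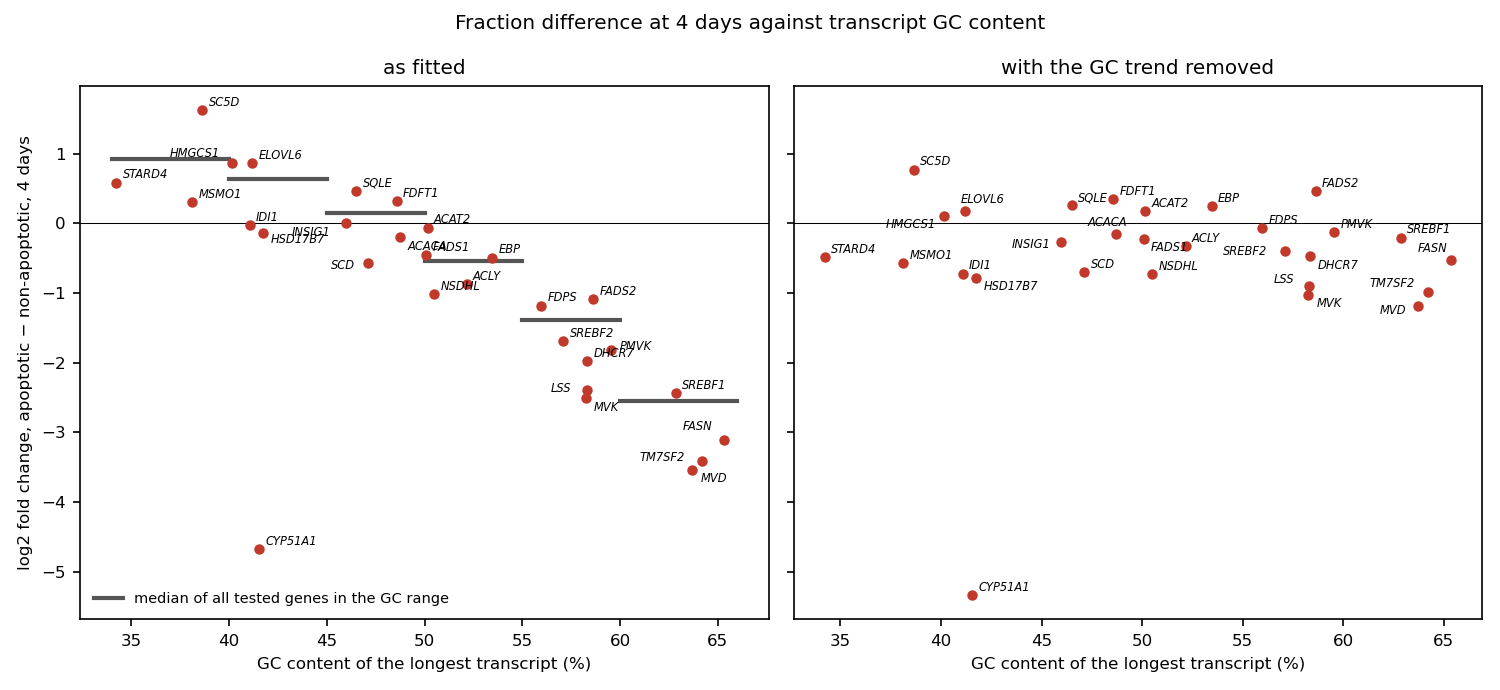
Log2 fold change of each member between the apoptotic and the non-apoptotic fraction at 4 days against the GC content of its longest transcript, as fitted (left, with grey bars for the median of all tested genes in a GC range) and with the GC trend removed (right). Members with at least 55% GC lie at or below -1.09 on the left and between -1.18 and 0.46 on the right, and CYP51A1 lies apart from the others in both panels.

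CYP51A1 (chr7:92112151-92134803) stood outside that pattern. At 41.5% GC it was the most reduced member, at 1.54 and 0.555 CPM (17 and 6 counts) against 28.4 and 25.7 CPM (415 and 358 counts), 25.6-fold lower (log2 -4.68 ± 0.22, adjusted p = 2.06e-21), and at -5.33 with the GC trend removed. It was also lower at 2 days, at 14.98 and 18.6 against 24.4 and 26.6 CPM (log2 -0.60 ± 0.12, adjusted p = 0.00032). Of its 3584 exonic bases, 2844 are shared on the same strand with the annotated gene AC000120.2, which has a count of 0 in every library. The shared bases have 38.4% GC and the remaining 740 bases 54.5% GC. Its counts may therefore stand for part of its exons, and its level is uncertain. The 41.5% GC and the correction were those of its longest transcript and may not hold for the bases counted.

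The change of the fraction difference from 5 hours to 4 days passed for 24 members, 7 upward and 17 downward (31.4% and 35.5% of all genes). This change was not tested with the GC trend removed. In the apoptotic fraction itself 9 members rose from 2 to 4 days and 15 fell (34.3% and 40.3% of all genes). SC5D rose by 2.42 ± 0.10, MSMO1 by 1.23 ± 0.11, HMGCS1 by 1.14 ± 0.10 and INSIG1 by 0.96 ± 0.10. Their longest transcripts had 38.6%, 38.1%, 40.2% and 46.0% GC. This step used the same apoptotic libraries of 4 days, and it was not tested with the GC trend removed either. INSIG1 rose over the same interval in all 3 kinds of suspended cells.

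Genes around these pathways were counted in lists. Over all genes 10.4% were called higher and 10.1% lower in attached Tpm2.1 cells, 34.2% and 32.2% in suspended EV cells and 30.8% and 30.6% in non-apoptotic cells. Of 10 genes of SREBP processing, 2 were lower in attached Tpm2.1 cells, ERLIN1 and ERLIN2, and in suspension 4 were higher and 4 lower in EV cells and 3 and 2 in non-apoptotic cells. MBTPS1, the site-1 protease that cleaves SREBPs, rose by 0.48 ± 0.05 and 0.63 ± 0.05, and INSIG2, the second retention factor, by 1.00 ± 0.08 in non-apoptotic cells. Of the other isoprenoid genes, PDSS1, which makes the side chain of coenzyme Q, fell by 1.25 ± 0.09 in suspended EV cells and by 1.15 ± 0.09 in non-apoptotic cells.

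Of 16 other fatty acid and lipid synthesis genes, 9 were lower in attached Tpm2.1 cells (10.1% of all genes), among them ACSS2, which makes acetyl-CoA from acetate (-0.74 ± 0.09), and the mitochondrial citrate carrier SLC25A1 (-0.48 ± 0.06). In suspension 6 rose and 8 fell in EV cells (34.2% and 32.2%) and 7 and 4 did so in non-apoptotic cells (30.8% and 30.6%). The phosphatidate phosphatase genes LPIN1 and LPIN2 rose in both, LPIN1 by 1.68 ± 0.07 and 1.42 ± 0.07. Of 10 LXR targets and efflux genes, 5 rose and 1 fell in suspended EV cells (34.2% and 32.2% of all genes). In non-apoptotic cells 7 rose and 1 fell (30.8% and 30.6%). Some of these genes respond to sterol excess, but the list also holds the LXR genes NR1H2 and NR1H3 themselves. The sterol exporter gene ABCG1 rose from 1.81 to a mean of 13.3 CPM in EV cells (2.32 ± 0.19) and from 1.87 to 10.2 CPM in the Tpm2.1 line (1.82 ± 0.18). At 5 hours, when HMGCS1, MSMO1 and INSIG1 were already higher, the ABCG1 libraries measured 1.55 and 1.19 CPM in EV and 1.26 and 0.81 CPM in non-apoptotic cells, below the attached ones.

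Of 12 genes of sterol uptake, storage and trafficking, 6 were lower in attached Tpm2.1 cells (10.1% of all genes). In suspension 7 rose and 3 fell in EV cells (34.2% and 32.2%) and 8 and 3 in non-apoptotic cells (30.8% and 30.6%). CAV1, the caveolar coat protein gene, fell by 1.27 ± 0.04 and 1.48 ± 0.04, while NPC1, which releases cholesterol from lysosomes, rose by 0.98 ± 0.06 in non-apoptotic cells. Of 12 genes of fatty acid oxidation, 3 were lower and 1 higher in attached Tpm2.1 cells (10.1% and 10.4%), with CPT1A, which admits fatty acids to mitochondria, at -0.89 ± 0.07 and PPARA, a receptor that activates the pathway, at 0.61 ± 0.13. Against the same shares in suspension, 7 rose and 3 fell in EV cells and 9 and 1 in non-apoptotic cells, with PPARA at 1.47 ± 0.10 and 1.15 ± 0.09.

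Between the fractions at 4 days 35.3% of all genes were higher and 36.8% lower, and these lists likewise held genes of both directions. Of the SREBP processing genes 6 were higher and 2 lower, and the lower ones included SCAP, the escort of SREBPs, at 29.3 and 29.3 against 161 and 163 CPM (log2 -2.47 ± 0.07). Of the other fatty acid genes 8 were higher and 7 lower, with SLC25A1 at -3.13 ± 0.09. Of the LXR targets and efflux genes 3 were higher and 6 lower, and the LXR-beta gene NR1H2 measured 8.87 and 6.85 against 110.1 and 102 CPM (log2 -3.75 ± 0.11). Uptake and trafficking genes were 5 higher and 5 lower, and fatty acid oxidation genes 3 higher and 6 lower. The GC trend described for the members was present in the same libraries.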

How the data were processed

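RNA of 28 libraries was sequenced. Per the labels' protocols, RNeasy kits gave total RNA, poly-T beads selected mRNA and random hexamers primed the cDNA. The authors deposited whole-number counts per gene and FPKM values for the same genes. The submitters' processing notes name hg38 and, without its role, DESeq2. Which aligner and counter were run, and with what strand setting, is not given in the sources. All 58735 gene IDs and coordinates matched GENCODE release 29.

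Counts were tested with edgeR 4.0.16 (R 4.3.3, limma 3.58.1): TMM scaling (factors 0.829 to 1.08), filterByExpr, which left 17191 genes, and a quasi-likelihood fit with a mean for each of 14 groups (14 residual degrees of freedom). Benjamini-Hochberg adjustment ran over all genes tested, in each of 44 contrasts separately, with a threshold of 0.05. Totals of 13043529 to 27416335 counts gave a common biological coefficient of variation of 4.77%. FPKM served for levels between genes. The scripts were tested on simulated data. Library values were given for the 2 highest and 2 lowest called members of each main comparison and for INSIG1, SREBF1, SREBF2, HMGCS1 and FASN, and from each related list for the 2 genes with the smallest p in a main comparison. Library values of other members were added after their values were seen. The members and lists were chosen with earlier results of these data known. Alternatives were DESeq2 1.42.0, 2 other scalings, every gene with a count, only protein-coding genes, only a comparison's own libraries, a GC correction (lowess, span 0.2), means without 4 days, a replicate block and leaving out each library. For the fractions at 4 days these were chosen after seeing the data. The count and FPKM tables were otherwise used whole. One gene of a related list, and the counts of that list, are not reported here.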

Additional observations from a re-analysis of the deposited data

Results flagged for a closer look

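The responses of the lines to suspension differed by a test of the difference itself for 13 of 29 members, where separation differed along with line. Over all genes 17% were called larger and 16.6% smaller in the same test. The response of the non-apoptotic Tpm2.1 fraction minus that of EV cells, on the log2 scale, was -0.52 for FASN, -0.45 for LSS, -0.37 for ACACA, -0.34 for MVK, -0.32 for ELOVL6 and -0.29 for SREBF1. It was 0.27 for DHCR7, 0.31 for FADS1, 0.33 for FDFT1, 0.33 for INSIG1, 0.4 for SC5D, 0.43 for MSMO1 and 0.45 for CYP51A1. MVK and SREBF1 were called neither with the GC trend removed nor without 4 days. FASN was at -0.21 with the GC trend removed. Some calls, listed above, ended when 1 attached library was left out.

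The difference between the apoptotic and the non-apoptotic fraction differed between 4 days and 5 hours for 24 of 29 members, again by a test of the difference itself, which called 31.4% of all genes upward and 35.5% downward. The value at 4 days minus that at 5 hours was -4.81 for CYP51A1, -3.95 for TM7SF2, -3.85 for MVD, -3.36 for FASN, -2.72 for SREBF1, -2.62 for MVK, -2.6 for LSS, -2.03 for PMVK, -1.96 for DHCR7 and -1.63 for SREBF2. It was -1.13 for FDPS, -1.03 for FADS2, -0.89 for NSDHL, -0.7 for ACLY, -0.61 for EBP, -0.37 for SCD and -0.32 for FADS1. It was positive for MSMO1 at 0.38, FDFT1 at 0.51, SQLE at 0.7, STARD4 at 0.73, HMGCS1 at 1.02, ELOVL6 at 1.06 and SC5D at 1.83. CYP51A1 had 17 and 6 counts in the apoptotic fraction at 4 days, and its level is uncertain. The fraction difference at 4 days followed GC content, and this test was not run with the GC trend removed.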

How the results depend on the processing

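Of 232 alternative values of the counts of members called, 211 stayed within 1.5 times the main count. In the non-apoptotic fraction the members lower in suspension were 2 in place of 1 with DESeq2 size factors, with protein-coding genes alone and with the libraries of the comparison alone. In EV cells they were 0 in place of 2 with library totals, 4 with the GC correction and 4 without 4 days. The members higher in the apoptotic fraction were 1 in place of 4 with the GC correction, and those with a larger rise in the Tpm2.1 line were 13 in place of 7 with the GC correction and 13 without 4 days. Leaving out 1 library gave 0 to 0 members higher and 20 to 22 lower in attached cells. The ranges were 23 to 23 and 1 to 2 in suspended EV cells, 20 to 22 and 1 to 2 in non-apoptotic cells, 5 to 8 and 5 to 6 for the lines compared, 1 to 5 and 20 to 22 for the fractions, and 6 to 7 and 17 to 18 for the fractions at 4 days. Of 903 values for single genes, 19 changed sign. SREBF1 in EV cells was at 0.13 with library totals, 0.01 with protein-coding genes alone and 0.01 without attached EV replicate 1 (leave-one-out range -0.06 to 0.01). FASN in non-apoptotic cells was at 0.09 with library totals, 0.20 with the GC correction, 0.00 without 1-day replicate 1 and 0.02 without 2-day replicate 1 (-0.04 to 0.02). HMGCS1 in the lines compared was at 0.00 without 4 days and 0.01 without non-apoptotic 2-day replicate 1. INSIG1 in the fractions at 4 days was at 0.07 with protein-coding genes alone and 0.02 without non-apoptotic replicate 2 (-0.08 to 0.02). In the mean over the fractions HMGCS1 was at -0.05 and STARD4 at -0.18 with the GC correction. Without 4 days SREBF1 was at 0.17, HMGCS1 at -0.12, FASN at 0.16, MVD at 0.05, STARD4 at -0.01 and SC5D at -0.11. The cause of these changes was not tested. With the replicate number as a block the counts were 0 higher and 23 lower in attached cells, 23 and 2 in EV, 22 and 1 in non-apoptotic cells, 4 and 21 for the fractions, 7 and 6 for the lines compared and 7 and 18 for the fractions at 4 days, the same as without it. Over all genes the deviations of same-numbered libraries had correlations of -0.0751 to 0.0541 over 91 pairs of groups, which does not establish a pairing. For the members, replicate 2 was the higher in both fractions at 2 days, for 27 and 28 of 29 genes.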
